A study of Mus musculus with 4 samples.

Results

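The genes examined here are 9 members of the matrix metalloproteinase and plasminogen systems, out of 33696 features in the count matrices, and they were taken as a fixed list of names. They comprise the proteases Mmp12, Mmp13, Mmp14 and Mmp19, the metalloproteinase inhibitors Timp1 and Timp2, and from the plasminogen system the receptor Plaur, the activator Plau and the inhibitor Serpinb2. Their unique molecular identifier (UMI) counts were read in 4 single-cell RNA libraries, each made from viable CD45+ cells that had been sorted out of KPC tumors growing under the skin. These tumors grew in male C57BL/6NHsd mice aged 8 to 10 weeks from injected cells of a pancreatic tumor line, which stems from mice whose alleles include Trp53 LSL.R172H/+ and Cre driven by the pancreatic promoter Pdx1. All tumors were resected on day 14. The untreated library came from tumors given neither of the agonists. The STING agonist library came from tumors injected once with 2 µg of ADU-S100, a STING agonist. For the LTβR agonist library, mice received 4 doses of 100 µg of anti-LTβR (clone 4H8) into the peritoneum, an antibody that activates the lymphotoxin-β receptor, and the combination library followed both treatments. In each group 10 tumors were pooled before sorting, so every group had 1 library and no difference between groups has a replicate check. Sets of 4 values below are in the order untreated, STING agonist, LTβR agonist and combination.

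Matrix metalloproteinases are zinc proteases that cut extracellular matrix and proteins at the cell surface, and the tissue inhibitors encoded by Timp genes bind and block them. Urokinase, encoded by Plau, cuts plasminogen to plasmin, a broad protease that also activates some metalloproteinases. Urokinase is held at the cell surface by its receptor, encoded by Plaur, and is inhibited by serpins such as the one encoded by Serpinb2. Macrophages and neutrophils are known sources of these proteases in tumors, and metalloelastase, the product of Mmp12, takes its common name from macrophages.

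The motif TGANTCA is a binding motif of AP-1 factors, and it was searched on both strands of the 250 bases before the RefSeq start sites (GRCm38.p6) because AP-1 sites are known from several promoters of these gene families and because Mmp12 and Mmp13, both on chromosome 9, had their highest level in the same cells. The motif reads the same on both strands. Of the 9 genes, all matched by symbol, 7 had a promoter entry and 4 of these held the motif, whereas 6.73% of 32536 promoters of the same length held it. The units differ: a gene counted if any of its start sites held the motif, with 2 start sites each for Mmp12 and Serpinb2, while the 6.73% counts single promoters. The 120 bases before the start site of these 4 genes are shown with the motif in capitals. A match of letters is a description only.
Mmp12, start site 2, chr9:7347254-7347373 (+): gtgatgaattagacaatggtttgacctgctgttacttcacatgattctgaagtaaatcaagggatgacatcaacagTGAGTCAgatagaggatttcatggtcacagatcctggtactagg
Mmp13, chr9:7272394-7272513 (+): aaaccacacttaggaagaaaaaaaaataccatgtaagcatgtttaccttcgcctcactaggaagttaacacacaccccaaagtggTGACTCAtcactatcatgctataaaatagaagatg
Plaur, chr7:24462363-24462482 (+): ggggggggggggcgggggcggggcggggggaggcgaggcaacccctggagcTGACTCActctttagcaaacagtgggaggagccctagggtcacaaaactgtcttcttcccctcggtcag
Serpinb2, start site 1, chr1:107511303-107511422 (+): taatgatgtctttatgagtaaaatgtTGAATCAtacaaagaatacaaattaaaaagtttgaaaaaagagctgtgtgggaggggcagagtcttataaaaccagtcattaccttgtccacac
The first base of the motif lay 44 bases before the start in Mmp12, 35 in Mmp13, 69 in Plaur and 94 in Serpinb2. The letters were not found in the windows of Mmp14, Timp1, Timp2 and the other start site of Mmp12. Mmp19 and Plau had no entry.

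The matrices held 8730 to 16322 cells per library, and 7524, 13444, 13223 and 14667 cells were kept, with median depths of 4616, 3110, 3738 and 2200 UMIs per cell. Libraries shared between 34 and 83 cell barcodes per pair. Clusters built without the 9 genes and without 48 other genes of both systems were given classes by fixed markers. Macrophage or monocyte-like cells numbered 4236, 5833, 7681 and 8823 after a sub-cluster of 36, 363, 124 and 158 cells, led by S100a9, Retnlg and Cxcr2, was left out of the class, neutrophil-like cells 494, 5299, 968 and 1293 and carcinoma-like cells 153, 221, 200 and 248. Neutrophil-like cells therefore made up 6.57, 39.4, 7.32 and 8.82% of kept cells. Summed neutrophil markers also stood at 2419, 7815, 4167 and 4392 UMIs per 1000000 UMIs, written as CPM, within the macrophage or monocyte-like cells, with all 12 markers detected and the highest level in the STING agonist library. In neutrophil-like cells they stood at 96690, 120804, 120607 and 108987 CPM. Their part in the values below was not tested. Shares of cells with a UMI were also computed after thinning each cell to 1000 UMIs, which left out shallower cells and kept 6956, 12019, 12033 and 11878. Median depths were 6120, 6450, 4510 and 2687 UMIs in macrophage or monocyte-like, 1832, 2110, 1612 and 1029 in neutrophil-like, 8654, 9121, 7236 and 4635 in Gpnmb and 3393, 3755, 2893 and 1677 in T-like cells, a class used as the background of free RNA.

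The carcinoma-like class passed the CD45 sort with little Ptprc, the gene for CD45, at 28.2, 43.9, 41.5 and 60.3 CPM. It held the keratin genes Krt8, at 388, 299, 352 and 412.5 CPM, and Krt18, at 295, 187, 213 and 249.9 CPM, but Epcam, Cdh1 and the claudin genes were at or near 0. Summed fibroblast markers, at 3094, 3162, 2798 and 2052 CPM, exceeded the summed carcinoma markers, at 995, 854, 899 and 1058 CPM. The collagen gene Col1a1 lay mostly in 47 of its 822 cells, those with UMIs of at least 2 of 6 fibroblast markers, at 8052 CPM against 1.96 CPM in the 775 other cells, while Krt8 was at 44.7 CPM in the 47 and at 392 CPM in the others. Sparc, a fibroblast marker not used to choose those cells, was at 2871 CPM in them and at 337 CPM in the others. The name is kept in the sense of the keratin markers, and the 47 cells are also given apart.

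Within the macrophage or monocyte-like class, 5 subsets named from markers are described: C1q macrophage-like, Gpnmb macrophage-like, Chil3 Vcan monocyte-like, MHC II Ccr2 monocyte-like and cycling macrophage-like cells. Heat-shock genes Hspa1a and Hspa1b were among the leading genes of the Gpnmb cells and interferon-response genes such as Ifit2 and Rsad2 led part of the Chil3 Vcan cells. Neutrophil-like cells gave a mature and an activated subset, and 1437 of the activated neutrophil-like cells came from the STING agonist library, against 61, 130 and 119 in the others. The activated subset joins 2 clusters, with 36, 897, 59 and 21 cells in 1 and 25, 540, 71 and 98 in the other, so that most of its cells lay in the first cluster in the untreated and STING agonist libraries and in the second in the LTβR agonist and combination libraries. The neutrophil-like class likewise joins 2 clusters, with 209, 3558, 513 and 617 and with 285, 1741, 455 and 676 cells. Further macrophage sub-clusters, whose leading genes held a marker of another list, stayed unnamed and are called here by their leading genes Ch25h and Olfml3, Ifitm1 and Clec5a, or Dcstamp and Qpct. They are described but not counted among the subsets.

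**Figure D1:**
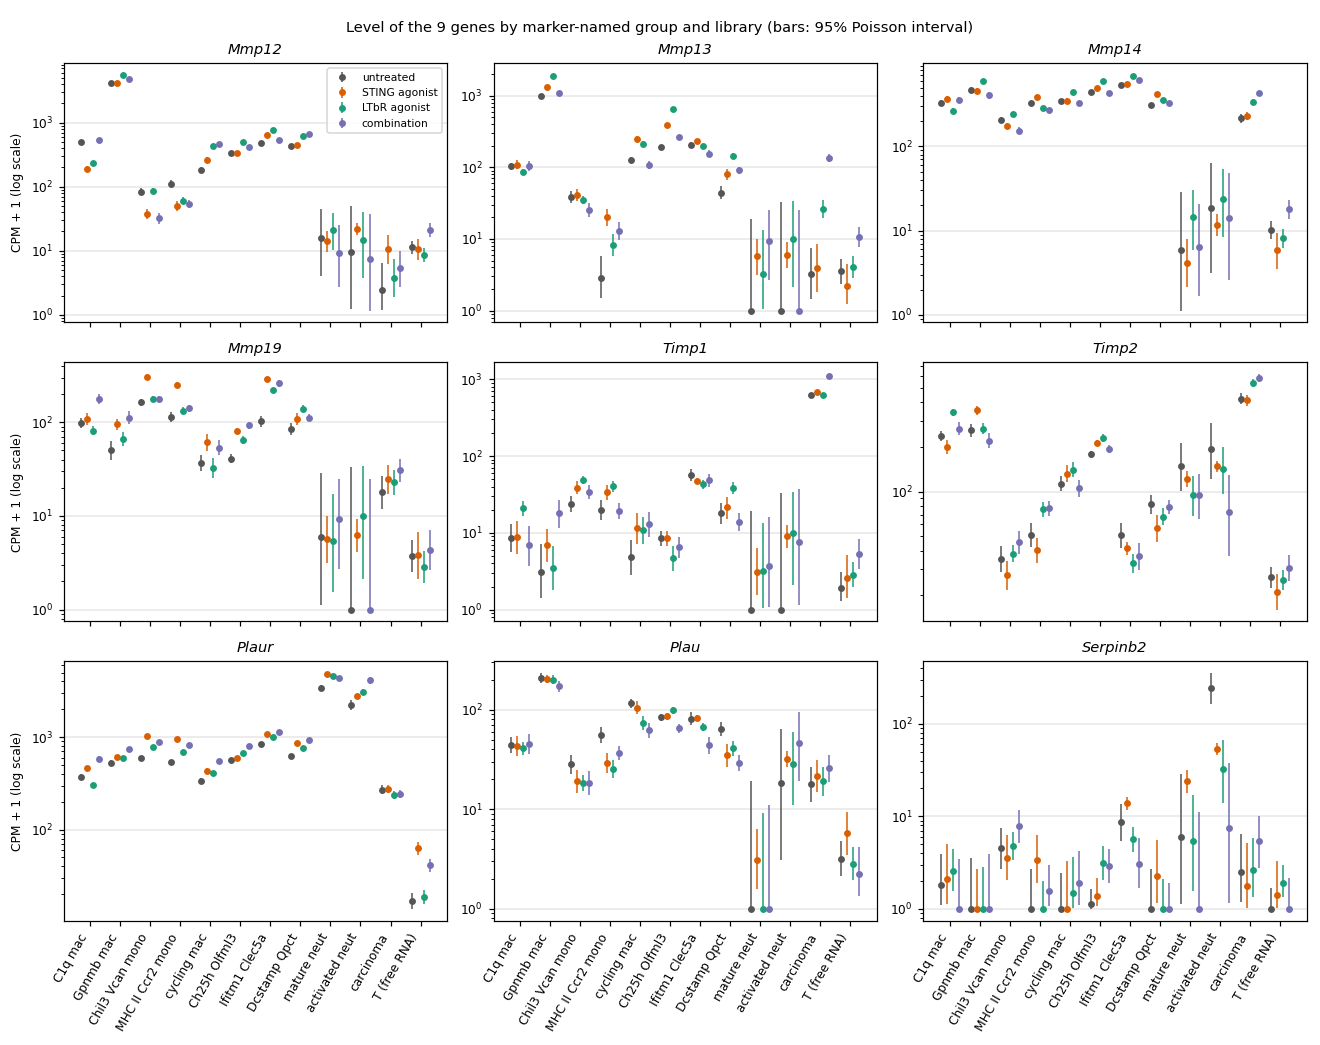
Level of each gene (CPM + 1, log scale) in marker-named cells and the 3 unnamed macrophage sub-clusters of each library, with T-like cells as a guide to free RNA. Points are 1 library each and bars are 95% Poisson intervals for counting error, and the Gpnmb macrophage-like cells stand highest for Mmp12, Mmp13 and Plau in all 4 libraries.

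The classes held unlike shares of the RNA of the 9 genes. Macrophage or monocyte-like cells held 97.4, 90.75, 92.4 and 93.6% of Mmp12 UMIs (exact 95% binomial intervals between 90.4 and 97.6%), and more than 80% of the UMIs of Mmp13, Mmp14, Mmp19 and Plau in every library. Carcinoma-like cells, 2.03, 1.64, 1.51 and 1.69% of kept cells, held 54.4, 27.5, 37.5 and 57.6% of Timp1 UMIs (between 25.99 and 59.4%). Their share of Timp2 UMIs was 12.2, 8.69, 15.5 and 20.4%. Neutrophil-like cells held 12.5, 49.5, 16.1 and 16.03% of Plaur UMIs (exact 95% binomial intervals between 12.04 and 49.8%), with the STING agonist library far above the others. For Serpinb2 the macrophage or monocyte-like share was 89.7, 64.1, 80.8 and 78.4%.

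**Figure D2:**
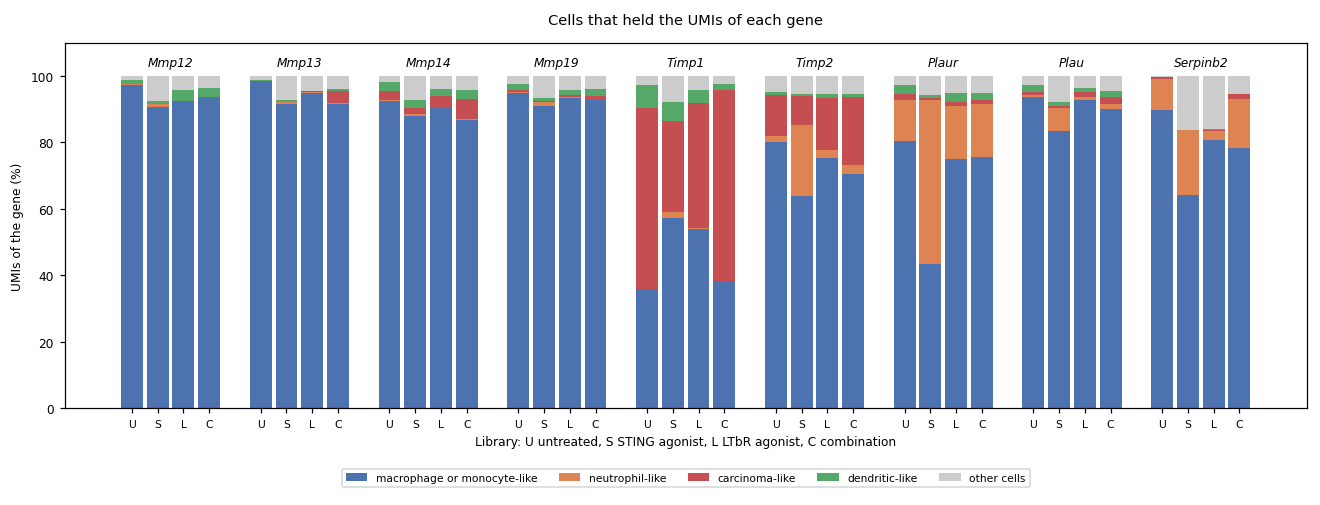
Share of each gene's UMIs (% of the UMIs in kept cells) by cell class, 1 bar for each library. Macrophage or monocyte-like cells held most Mmp12 UMIs in each library, carcinoma-like cells between 27.5 and 57.6% of Timp1 UMIs, and neutrophil-like cells 49.5% of Plaur UMIs in the STING agonist library.

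The next comparison asked which members differed between the treated and untreated libraries within each class, and where the combination differed from either single agonist. With 1 library per group no test was possible, so a difference was called where the CPM differed at least 2-fold with a 95% interval that excluded no difference, among genes with at least 50 UMIs over both libraries. In macrophage or monocyte-like cells, 3 of 9 members were called with the STING agonist (Mmp19, Timp1 and Serpinb2, all higher), against 7.21% of all genes tested there. With the LTβR agonist 1 of 9 was called (Timp1, higher; all genes 2.99%), and with the combination again 1 of 9 (Timp1, higher; all genes 3.37%). Set against the STING agonist alone, the combination had 1 of 9 called (Serpinb2, lower; all genes 5.33%), and against the LTβR agonist alone 0 of 9 (all genes 1.37%). The members' median log2 ratio to untreated was 0.60 with the STING agonist, 0.36 with the LTβR agonist and 0.21 with the combination, beside -0.20, -0.04 and -0.09 for all genes. Ratios are not centered on these medians, and in neutrophil-like cells the median of all genes was -0.31, -0.15 and -0.12. Centering left 33 of the 37 calls made in classes and subsets and turned none.

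Fewer members could be tested in the other classes. In neutrophil-like cells no member of 9 tested was called with the STING agonist (all genes 10.6%), 1 of 5 with the LTβR agonist (Serpinb2, lower; all genes 5.12%) and 0 of 4 with the combination (all genes 3.26%). The combination gave 0 of 9 called against the STING agonist alone (all genes 7.16%) and 1 of 6 against the LTβR agonist alone (Serpinb2, higher; all genes 1.78%). Carcinoma-like cells had 0 of 6 members called with the STING agonist (all genes 5.28%) and 0 of 6 with the LTβR agonist (all genes 3.81%). Mmp13 was the 1 of 7 called, as higher, in the combination against untreated (all genes 4.55%), against the STING agonist alone (all genes 7.24%) and against the LTβR agonist alone (all genes 3.18%).

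Over 7 subsets, 5 of macrophages or monocytes and 2 of neutrophils, pairs of a member and a subset were counted by the same rule. With the STING agonist 6 of 44 pairs were called, 2 higher and 4 lower, whereas 3.74% of all gene and subset pairs were. The LTβR agonist gave 6 of 41, 4 higher and 2 lower (all pairs 2.39%), and the combination 4 of 39, 2 higher and 2 lower (all pairs 2.43%). Against the STING agonist alone the combination had 4 of 44 called (all pairs 3.14%), and against the LTβR agonist alone 6 of 41 (all pairs 1.62%). The 3 comparisons with untreated share that library. Of the 37 called ratios in classes and subsets, 13 turned direction when each cell was named by its own markers rather than by its cluster, so these ratios depend on how the cells were grouped.

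**Figure D3:**
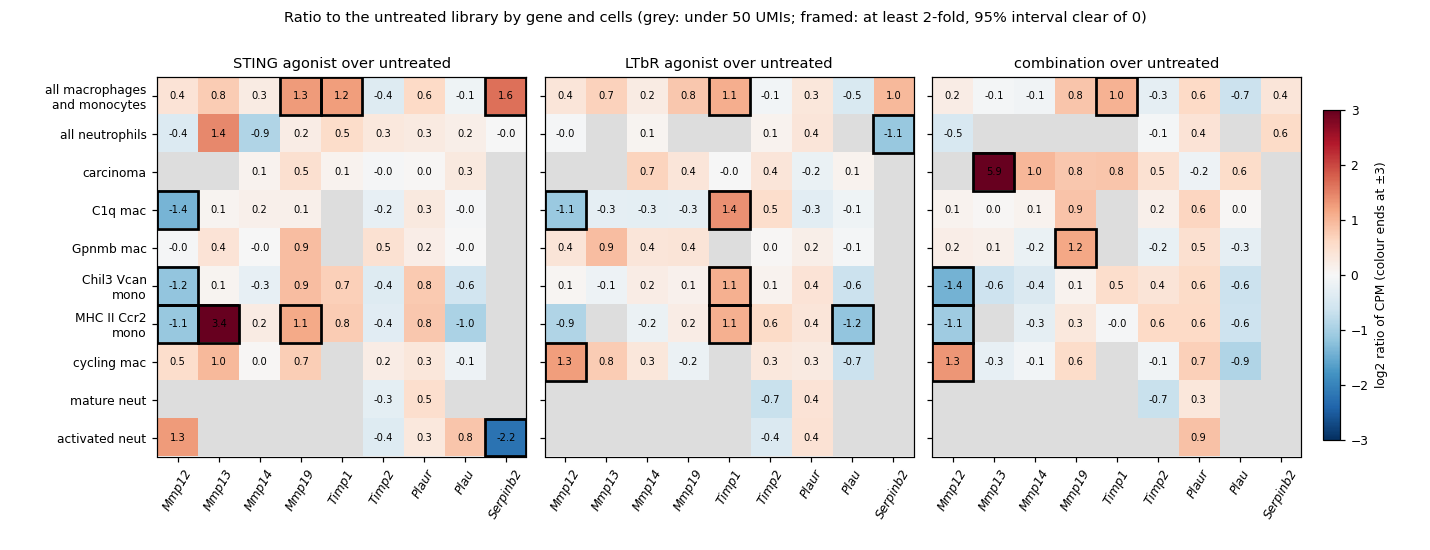
Log2 ratio of CPM to the untreated library for each gene in the classes and subsets described, with 1 panel for each treatment. Grey cells had under 50 UMIs over both libraries, black frames mark differences of at least 2-fold whose 95% interval is clear of 0, and Plaur is framed in no panel while Timp1 is framed in macrophage or monocyte-like cells in all 3.

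Mmp12 (ENSMUSG00000049723), which encodes the macrophage metalloelastase, was highest in Gpnmb macrophage-like cells, at 4194, 4110, 5467 and 4798 CPM. These cells were 2.06, 1.77, 1.98 and 1.66% of kept cells and held 34.9, 25.6, 35 and 28.8% of Mmp12 UMIs. An Mmp12 UMI was found in 89.03, 90.3, 91.2 and 92.2% of them, and after thinning in 75.2, 70, 81.8 and 81.03% (exact 95% intervals between 63.6 and 86.3%). In T-like cells, which should lack the RNA, 1.81, 3.90, 1.86 and 2.53% had one before and 0.695, 1.65, 0.828 and 1.74% after thinning. No other subset overlapped this range. The Ifitm1 Clec5a sub-cluster had 479, 648.5, 762 and 538 CPM, and from there down to cycling macrophage-like cells each neighbor in the order overlapped the next. Both monocyte subsets lay below the range of those cells. Mature neutrophil-like cells had 8.22 to 20.1 CPM, activated ones 6.53 to 21.01 and carcinoma-like cells 1.48 to 9.68, within or below the 7.63 to 20.2 CPM of T-like cells except for 1 library of activated cells.

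Over all macrophage or monocyte-like cells Mmp12 was at 574, 764.5, 739 and 665 CPM, and no treated library differed 2-fold from untreated. The subsets moved apart from one another. In cycling macrophage-like cells Mmp12 was at 182, 263, 436 and 458 CPM, a log2 ratio to untreated of 1.26 (95% interval 1.09 to 1.42) with the LTβR agonist and 1.33 (95% interval 1.17 to 1.49) with the combination. The untreated library was the lowest of the 4 there, and both ratios stayed called under 12 of 13 alternative settings. Of these settings, a 1.5-fold rule and no minimum of UMIs only loosen the call, and a minimum of 200 UMIs was far exceeded. Such settings could not undo it. Chil3 Vcan monocyte-like cells had 82.7, 36.6, 86.1 and 31.1 CPM, with a log2 ratio to untreated of -1.18 (95% interval -1.53 to -0.83) with the STING agonist and -1.41 (95% interval -1.79 to -1.05) with the combination, while the LTβR agonist library overlapped untreated. The combination was also lower than the LTβR agonist alone, at -1.47 (95% interval -1.82 to -1.14), but at -0.52 and not called without the 1% of cells with most Mmp12 UMIs, of which 1 cell in the LTβR agonist library held 192. MHC II Ccr2 monocyte-like cells had 110.2, 49.8, 59.4 and 52.85 CPM, so that untreated was the highest library. The ratio was -1.15 (95% interval -1.47 to -0.83) with the STING agonist and -1.06 (95% interval -1.34 to -0.78) with the combination. In both monocyte subsets 1% of the cells held between 51.6 and 81.2% of these UMIs, over the 4 libraries, and the STING agonist ratio in the MHC II Ccr2 cells was -0.92 and not called without them. Both STING agonist ratios and the MHC II Ccr2 ratio of the combination turned direction when each cell was named by its own markers.

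C1q macrophage-like cells held Mmp12 at 497, 190.4, 230.5 and 538 CPM, with the STING and LTβR agonist libraries below the other pair. The log2 ratio to untreated was -1.38 (95% interval -1.56 to -1.21) and -1.11 (95% interval -1.23 to -0.98), and the combination exceeded each agonist alone, by 1.5 (95% interval 1.31 to 1.69) and 1.22 (95% interval 1.08 to 1.36). All 4 of these ratios turned direction under at least one other way of filtering, clustering or naming the cells, and those values are given at the end. An Mmp12 UMI was found in 18.8, 17.15, 9.92 and 15.4% of C1q cells, and in 8.81, 8.66, 5.03 and 9.68% after thinning, so that the shares of the untreated and STING agonist libraries were alike where their CPM was not.

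Mmp13 (ENSMUSG00000050578) encodes a collagenase. It too was highest in Gpnmb macrophage-like cells, at 998, 1328, 1894 and 1102 CPM, and 62.6, 76.05, 77.5 and 65.2% of these cells had a UMI, or 39.9, 48.3, 56.6 and 47.8% after thinning (exact 95% intervals between 32.05 and 62.7%). In T-like cells 0.724, 0.5085, 0.805 and 1.42% had one, or 0.232, 0, 0.221 and 0.631% after thinning, where 0 of 546 cells in the STING agonist library allows a share of cells with a UMI, at this depth, of up to 0.5495%. Among thinned Gpnmb cells, Mmp13 was found in 47.8, 56.5, 63.98 and 54.8% of those with an Mmp12 UMI and in 15.8, 28.99, 23.4 and 18.2% of those without. In each of the 4 libraries Mmp13 was thus found more often in cells with Mmp12 than in cells without it, a comparison in which deeper cells were thinned to the same depth. Plau showed no such common order: it was found in 15.65, 14.29, 15.17 and 8.511% of thinned Gpnmb cells with an Mmp12 UMI. Without one the shares were 5.263, 13.04, 17.02 and 18.18%. No other subset overlapped the Mmp13 range of the Gpnmb cells. Over all macrophage or monocyte-like cells Mmp13 was at 186, 314, 299.7 and 179 CPM, higher with each agonist alone than in the untreated and combination libraries, by less than 2-fold.

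Beneath this total the order of the libraries differed between subsets. The Ch25h Olfml3 sub-cluster had 189, 392, 649.5 and 265 CPM, a log2 ratio to untreated of 1.05 (95% interval 0.96 to 1.14) with the STING agonist and 1.78 (95% interval 1.69 to 1.87) with the LTβR agonist. The Dcstamp Qpct sub-cluster stood at 43.4, 78.7, 145 and 89.7 CPM, again with the LTβR agonist library highest, at 1.74 (95% interval 1.42 to 2.07). Cycling macrophage-like cells had 126, 248, 214 and 106 CPM. There the ratio of the combination to the STING agonist alone was -1.23 (95% interval -1.47 to -0.99) and to the LTβR agonist alone -1.01 (95% interval -1.25 to -0.78). In MHC II Ccr2 monocyte-like cells only 4, 48, 27 and 43 UMIs were found, and the called ratio of 3.37 (95% interval 1.92 to 5.31) with the STING agonist rests on the first 2 of these counts.

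Mmp14 (ENSMUSG00000000957) encodes a membrane-bound metalloproteinase that activates other members of its family. Its levels overlapped among most macrophages. The Ifitm1 Clec5a sub-cluster led in all 4 libraries at 537, 554.5, 685 and 609.5 CPM, and the Ch25h Olfml3 sub-cluster at 437, 487, 598 and 424 and Gpnmb cells at 464, 459.8, 596.5 and 402 CPM overlapped with it. Chil3 Vcan monocyte-like cells were lower, at 207, 173, 240.3 and 153 CPM, and T-like cells had 9.23, 4.84, 7.18 and 16.85 CPM. Over all macrophage or monocyte-like cells the level was 347, 415, 413 and 325 CPM, and Mmp14 was called in no class or subset and no comparison. Carcinoma-like cells had 214.5, 232, 340.1 and 426 CPM, a ratio of the combination to untreated of 0.99 (95% interval 0.79 to 1.19), just short of 2-fold. The LTβR agonist library also lay above untreated there, at 0.66 (95% interval 0.46 to 0.87).

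Mmp19 (ENSMUSG00000025355), a metalloproteinase of basement membrane substrates, was at 102, 286.5, 219 and 259.5 CPM in the Ifitm1 Clec5a sub-cluster and at 162, 305, 178 and 174 CPM in Chil3 Vcan monocyte-like cells, and these ranges overlapped. Gpnmb cells, the leading cells for Mmp12, had only 49.6, 93.8, 65.35 and 111 CPM of it. T-like cells stood at 2.72, 2.83, 1.83 and 3.37 CPM. The untreated library was the lowest of the 4 in macrophage or monocyte-like cells as a whole, at 85.96, 207, 150.3 and 152 CPM, and the intervals of the LTβR agonist and combination libraries overlapped. The log2 ratio to untreated was 1.27 (95% interval 1.20 to 1.33) with the STING agonist, 0.81 (95% interval 0.74 to 0.87) with the LTβR agonist and 0.83 (95% interval 0.76 to 0.90) with the combination. Of these cells 21.98, 36.6, 27.01 and 21.6% had an Mmp19 UMI, and 6.08, 13.9, 10.5 and 11.1% after thinning. In T-like cells 0.869, 1.19, 0.352 and 0.678% did, and 0.309, 0.366, 0.110 and 0.0789% after thinning. The STING agonist ratio stayed called under all 12 alternative settings tried, between 1.1 and 1.47, but these include the settings named above that could not undo a call.

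Within subsets, Mmp19 in MHC II Ccr2 monocyte-like cells was at 113, 249.9, 132 and 141 CPM, highest with the STING agonist at a ratio of 1.14 (95% interval 0.92 to 1.36). Gpnmb cells reached 1.16 (95% interval 0.74 to 1.60) with the combination. In the Ifitm1 Clec5a sub-cluster every treated library was higher than untreated, with ratios of 1.49 (95% interval 1.29 to 1.70), 1.10 (95% interval 0.89 to 1.32) and 1.35 (95% interval 1.12 to 1.58). C1q cells differed in another comparison: at 97.7, 108, 80.5 and 177 CPM, the combination exceeded the LTβR agonist alone by 1.14 (95% interval 0.89 to 1.38).

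Timp1 (ENSMUSG00000001131), turning to the inhibitors, encodes a secreted protein that blocks most metalloproteinases. Carcinoma-like cells had the highest level in all 4 libraries, 623, 671, 614 and 1117 CPM, and the combination library stood above the others, by 0.84 (95% interval 0.72 to 0.96) relative to untreated, which is under 2-fold. The Ifitm1 Clec5a sub-cluster was far below, at 55.8, 46.75, 41.6 and 47.4 CPM, and Chil3 Vcan monocyte-like cells overlapped with it. Gpnmb cells had few UMIs of it, 3, 13, 5 and 22 in all. T-like cells, at 0.905, 1.615, 1.83 and 4.29 CPM, mark the background.

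In macrophage or monocyte-like cells as a whole Timp1 was at 18.95, 45.05, 40.3 and 38.8 CPM, with untreated the lowest and the LTβR agonist and combination libraries overlapping. Log2 ratios to untreated were 1.25 (95% interval 1.11 to 1.39), 1.09 (95% interval 0.95 to 1.23) and 1.03 (95% interval 0.89 to 1.18). A UMI was found in 5.88, 10.25, 7.004 and 4.94% of these cells, and in 1.475, 2.98, 2.46 and 2.395% after thinning, against 0.362, 0.678, 0.554 and 0.739% of T-like cells, or 0.154, 0.183, 0.331 and 0.474% after thinning. The combination ratio was 0.77 and not called without the 1% of cells with most Timp1 UMIs. The part of the subset mix in the STING agonist ratio is given further on. Not all parts of the class were higher with the LTβR agonist: the Ifitm1 Clec5a sub-cluster, as given above, had a lower CPM with it than untreated. Subset values were higher with the LTβR agonist than untreated in Chil3 Vcan monocyte-like cells, with 22.8, 37.7, 47.6 and 32.9 CPM and a ratio of 1.06 (95% interval 0.66 to 1.48), and in MHC II Ccr2 monocyte-like cells, with 19.1, 32.5, 39.7 and 18.5 CPM and 1.06 (95% interval 0.55 to 1.59). Without the 1% of cells with most Timp1 UMIs these ratios were 0.62 and 0.87 and not called, and the first was -0.16 with members kept for clustering. The combination was lower than the LTβR agonist alone in the MHC II Ccr2 cells, at -1.10 (95% interval -1.54 to -0.67). In C1q cells 19, 14, 77 and 9 UMIs gave 1.38 (95% interval 0.64 to 2.18) for the LTβR agonist against untreated and -1.73 (95% interval -2.91 to -0.73) for the combination against the LTβR agonist, and both turned direction when each cell was named by its own markers.

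Timp2 (ENSMUSG00000017466), an inhibitor that also takes part in the activation of pro-Mmp2 by Mmp14, was likewise highest in carcinoma-like cells, at 422, 412.5, 542 and 581 CPM. Gpnmb macrophage-like cells, at 258, 353, 264 and 219 CPM, C1q macrophage-like cells, at 236, 199, 341 and 264 CPM, and the Ch25h Olfml3 sub-cluster, at 177.5, 212, 229 and 193 CPM, followed with overlapping ranges. T-like cells had 25.35, 20.2, 24.3 and 29.7 CPM. Gpnmb cells thus held Timp2 but, as given above, few UMIs of Timp1.

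Over all macrophage or monocyte-like cells Timp2 was at 128, 98.04, 119.9 and 106 CPM, with untreated the highest and no difference of 2-fold. Neutrophil-like cells had 88.9, 111.5, 95.1 and 84.7 CPM and overlapped between libraries except for the STING agonist library, whose interval lay above that of the combination. The activated subset had 192, 147, 141 and 71.8 CPM, and the ratio of the combination to the STING agonist alone there was -1.04 (95% interval -2.05 to -0.19), on 22, 505, 31 and 11 UMIs. As given above, these 2 libraries had most of their activated cells in different clusters, which holds for the Serpinb2 ratio of the same comparison too.

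Plaur (ENSMUSG00000046223), which encodes the urokinase receptor, was highest in mature neutrophil-like cells, at 3421, 4832, 4538 and 4329 CPM. Activated neutrophil-like cells had 2248, 2805, 3053 and 4114 CPM, and the ranges of both subsets overlapped. The Ifitm1 Clec5a sub-cluster at 843, 1075, 1006 and 1134 CPM and Chil3 Vcan monocyte-like cells at 595, 1018, 786 and 887 CPM overlapped, below both neutrophil subsets in range. Summed neutrophil markers in that sub-cluster stood at 6178, 12075, 8633 and 9264 CPM, above the level in the macrophage or monocyte-like class as a whole in each library, and their part in its Plaur level was not tested. Carcinoma-like cells had 270.2, 275.5, 237 and 242 CPM. A Plaur UMI was found in 79.8, 82.4, 87.4 and 86% of neutrophil-like cells, or 74.5, 78.1, 83.1 and 87.7% after thinning. In macrophage or monocyte-like cells the shares were 71.5, 78.3, 73.4 and 72.7%, or 36.9, 50.04, 46.3 and 51.3% after thinning. T-like cells had 3.98, 8.14, 3.775 and 5.85%, or 1.78, 3.30, 1.215 and 3.63% after thinning, highest in the STING agonist and combination libraries.

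Plaur was higher than untreated in every treated library in the neutrophil-like and in the macrophage or monocyte-like class, by under 2-fold. Neutrophil-like cells stood at 2812, 3411, 3637 and 3724 CPM, with log2 ratios to untreated of 0.28 (95% interval 0.22 to 0.34), 0.37 (95% interval 0.31 to 0.44) and 0.41 (95% interval 0.34 to 0.47). Macrophage or monocyte-like cells stood at 579.7, 878, 737 and 871 CPM, with 0.60 (95% interval 0.57 to 0.63), 0.35 (95% interval 0.32 to 0.37) and 0.59 (95% interval 0.56 to 0.62). C1q cells with the LTβR agonist were the exception among macrophage subsets, at -0.31 (95% interval -0.43 to -0.18). The largest ratio to untreated in any subset was 0.87 (95% interval 0.66 to 1.09), in activated neutrophil-like cells with the combination. Over all kept cells the level was 467.5, 1238, 617 and 751 CPM, a log2 ratio of 1.41 with the STING agonist. When the levels within subsets were held at their untreated values and only the mix of cells was changed to that of the STING agonist library, the ratio was 1.07. With the mix held and only the levels changed it was 0.36. Neutrophil-like cells were 6.57% of kept cells in the untreated and 39.4% in the STING agonist library, a share of cells, whereas CPM is taken over summed UMIs. What caused the difference was not tested.

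Plau (ENSMUSG00000021822) encodes urokinase, the ligand of that receptor. Its order of cells was unlike that of Plaur: Gpnmb macrophage-like cells were highest, at 208, 205, 200.5 and 172 CPM, apart from all others, and cycling macrophage-like cells had 115, 104, 73.2 and 61.2 CPM. The Ch25h Olfml3 sub-cluster stood at 83.1, 84.9, 98.1 and 64.5 CPM. Neutrophil-like cells had 19.3, 21.7, 16.7 and 18.7 CPM and T-like cells 2.17, 4.84, 1.83 and 1.23 CPM. Of Gpnmb cells 56.8, 54.2, 51.9 and 39.75% had a Plau UMI, and 13.1, 13.9, 15.5 and 10.3% after thinning, against 0.7965, 1.36, 0.604 and 0.2465% and 0.0772, 0.366, 0.166 and 0.0789% of T-like cells.

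Untreated was the highest and the combination the lowest library in macrophage or monocyte-like cells, at 83.3, 76.3, 60.6 and 53.1 CPM. The ratio to untreated was -0.13 (95% interval -0.20 to -0.05) with the STING agonist, -0.46 (95% interval -0.54 to -0.38) with the LTβR agonist and -0.65 (95% interval -0.74 to -0.56) with the combination. No class was called. MHC II Ccr2 monocyte-like cells were the exception among subsets, with 55.3, 28.5, 24.6 and 35.97 CPM and -1.17 (95% interval -1.58 to -0.77) for the LTβR agonist. The Dcstamp Qpct sub-cluster had 63.2, 34.1, 40.04 and 28.3 CPM, with the combination lowest at -1.16 (95% interval -1.53 to -0.79). Over the macrophage or monocyte-like class as a whole Plaur was higher and Plau lower than untreated with the LTβR agonist and with the combination, each by under 2-fold, and a test of that contrast was not possible. With the STING agonist the Plau ratio of -0.13 lay above the median of all genes, -0.20, so its direction turned when set against that median.

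Serpinb2 (ENSMUSG00000062345) encodes plasminogen activator inhibitor type 2. Its UMIs lay in few cells. T-like cells had 0, 1, 6 and 0 UMIs, or 0, 0.404, 0.916 and 0 CPM, and the counts of 0 in the untreated and combination libraries allow up to 0.543 and 0.919 CPM. Gpnmb cells had 0 UMIs in all 4 libraries, which allows levels of up to 2.10, 1.37, 1.47 and 2.33 CPM. The cells with the highest Mmp12 level thus had no detected Serpinb2. In macrophage or monocyte-like cells 1% of the cells held 100, 91.8, 94.9 and 99.75% of Serpinb2 UMIs, and single cells held up to 67, 204, 56 and 58.

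Macrophage or monocyte-like cells had 10.2, 31.8, 20.1 and 13.1 CPM, highest with the STING agonist. The class held 1324 UMIs in that library and 297 in the untreated library. Of these, 125 and 16 lay in the Ifitm1 Clec5a sub-cluster. Each other macrophage subset or sub-cluster described had at most 7 and 10. In both libraries most UMIs of the class thus lay in cells that are not described here. In the class the STING agonist ratio to untreated was 1.64 (95% interval 1.46 to 1.83), and that of the combination to the STING agonist alone was -1.28 (95% interval -1.45 to -1.12). The latter was -6.30 without the 1% of cells with most Serpinb2 UMIs, a value that rests on the very few UMIs then left in the combination library. The ratio to untreated was called under all 11 alternatives that gave a value, including the settings named above that could not undo it. With 100% of the untreated UMIs in 1% of the cells no value could be had without such cells. Neutrophil-like cells had 33.2, 32.9, 14.99 and 49.35 CPM from 31, 402, 26 and 74 UMIs, with the LTβR agonist library lowest, at -1.15 (95% interval -1.96 to -0.35) to untreated. The combination was higher than that library by 1.72 (95% interval 1.06 to 2.42). Activated neutrophil-like cells had 244, 52.8, 31.8 and 6.53 CPM from 28, 181, 7 and 1 UMIs, with a ratio of -2.21 (95% interval -2.79 to -1.58) for the STING agonist against untreated and -3.02 (95% interval -8.33 to -0.52) for the combination against the STING agonist. The untreated value comes from 61 cells. Both ratios in the whole class, and the STING agonist ratio in the activated subset, turned direction when each cell was named by its own markers. Without the 1% of cells with most Serpinb2 UMIs too few remained in neutrophil-like cells as a whole for a ratio.

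**Figure D4:**
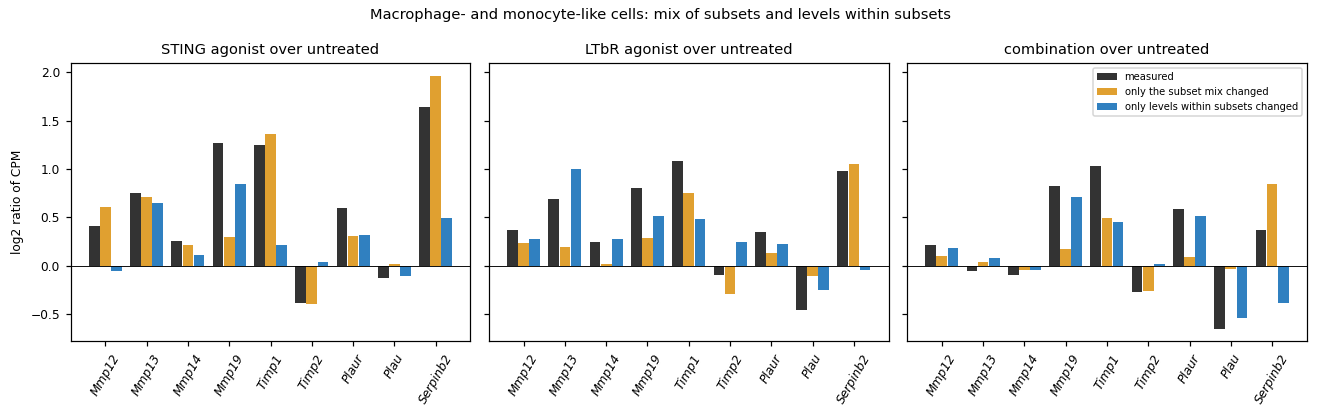
Log2 ratio of CPM to the untreated library in macrophage or monocyte-like cells: as measured (dark), with only the mix of subsets changed (yellow) and with only the levels within subsets changed (blue). For Timp1 with the STING agonist the mix alone gave 1.36 and the levels alone 0.21, whereas for Mmp19 they gave 0.29 and 0.84.

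The mix of subsets and the levels within them were separated in this way for all 9 genes. For Timp1 in the STING agonist library the measured ratio was 1.25, the mix alone gave 1.36 and the levels alone 0.21. Serpinb2 in that library was alike, with 1.96 from the mix and 0.49 from the levels. Mmp19 was the opposite case, with 0.29 from the mix and 0.84 from the levels. With the combination Plaur had 0.09 from the mix and 0.52 from the levels, and Plau -0.03 and -0.54. For Mmp13 with the LTβR agonist the levels alone gave 1.00 and the mix 0.19. The mix and level parts need not add up to the measured ratio.

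In carcinoma-like cells Mmp13 was at 2.23, 2.98, 25.4 and 135 CPM, so the combination library stood highest, with a log2 ratio of 5.92 (95% interval 4.36 to 8.21) to untreated, 5.50 (95% interval 4.13 to 7.39) to the STING agonist alone and 2.41 (95% interval 1.94 to 2.90) to the LTβR agonist alone. The UMIs of the class were 3, 4, 46 and 215, and few cells held them. Of 215 UMIs in the combination library, 150 were in 1 cell with fibroblast markers and 60 in 1 other cell. Without the 1% of cells with most Mmp13 UMIs the ratios were 1.78, 1.76 and 0.19, and none was called. With each cell named by its own markers the ratios were 0.38, -0.61 and -0.02. When the 47 cells with fibroblast markers were set apart, they had Mmp13 at 5.89, 0, 309 and 1466 CPM and the 775 other cells 1.70, 3.18, 2.39 and 43.6 CPM, and the count of 0 among the 9 marked cells of the STING agonist library allows up to 35.7 CPM.

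Mmp14, Timp1, Timp2 and Plaur were also found in the cells without fibroblast markers. Mmp14 in the 775 other cells was at 199, 177, 280.4 and 376 CPM, again highest in the combination library, and at 324, 1047, 1073 and 1153 CPM in the cells with fibroblast markers. Timp1 in the other cells was at 646, 707, 653.5 and 1135 CPM. Timp2 was at 429.7, 392, 536 and 576 CPM and Plaur at 295, 289, 250.5 and 244 CPM. With the cells with fibroblast markers left out, 4 ratios of members were called in the class instead of 3, the added one being Mmp14 in the combination against the STING agonist. The share of all genes called was not computed without those cells. Neutrophil markers in the class summed to 30.4, 1514, 191 and 331 CPM, highest with the STING agonist, and their part in these values was not tested.

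**Figure D5:**
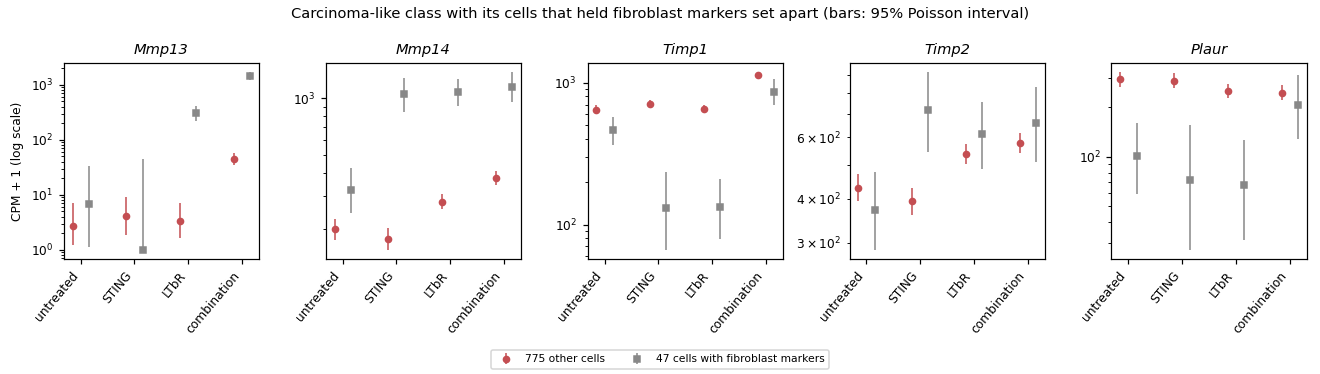
Level of 5 genes (CPM + 1, log scale) in the carcinoma-like class of each library, for the 47 cells with fibroblast markers (squares) and the 775 other cells (circles), with 95% Poisson intervals. Among the other cells Timp1 reached 1135 CPM and Mmp14 376 CPM in the combination library, the highest of the 4 libraries for both.

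Among 48 other genes of both systems, taken from a fixed list, 27, 27 and 25 could be tested in macrophage or monocyte-like cells with the STING agonist, the LTβR agonist and the combination. With the STING agonist 7 were higher and 1 lower, beside 7.21% of all genes called in either direction. The higher genes were the collagenase gene Mmp8 (10.6, 33.5, 12.9 and 9.77 CPM), the gelatinase gene Mmp9 (1.165, 6.59, 11.45 and 15.9 CPM), Mmp27, the tissue plasminogen activator gene Plat (2.88, 8.34, 3.78 and 7.65 CPM), the thrombomodulin gene Thbd (12.5, 44.3, 25.2 and 22.2 CPM), the tissue factor gene F3 (12.3, 48.2, 24.1 and 22.6 CPM) and Cd44 (811, 1669, 1397 and 1331 CPM), a hyaluronan receptor. Serpine2, an inhibitor of plasminogen activators, was lower at 1.30, 0.529, 0.529 and 1.16 CPM, from only 38, 22, 21 and 35 UMIs. T-like cells held far more of it, 62.6, 81.1, 57.6 and 73.2 CPM. The part of free RNA in the macrophage or monocyte-like value was not tested. With the LTβR agonist Mmp9, Mmp27 and Thbd were higher and Timp3 and Serpine2 lower (all genes 2.99%), and with the combination Mmp9 and Plat were higher and none was lower (all genes 3.37%). Of the 479 Mmp9 UMIs of the class in the combination library, 335 were in cycling macrophage-like cells, at 149.5 CPM, against 0.960 to 22.2 CPM in the other subsets and sub-clusters described. Mmp27 was at 0.754, 1.68, 1.94 and 0.662 CPM and Timp3 at 2.98, 2.91, 1.385 and 1.85 CPM. Neutrophil-like cells held far more Mmp9, 610.3, 286, 561.5 and 468 CPM, and F3, 407, 608, 560.3 and 578 CPM, and the part of the neutrophil markers found in macrophage or monocyte-like cells was not tested.

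Of 19, 16 and 17 genes tested in neutrophil-like cells, 1 was higher and 1 lower with the STING agonist (all genes 10.6%), 1 was higher with the LTβR agonist (all genes 5.12%) and 1 was higher with the combination (all genes 3.26%). These were Bsg, which encodes an inducer of metalloproteinases (131, 281, 133 and 131 CPM), Mmp9 as the lower one, Mmp8 (65.3, 65.4, 210.4 and 108 CPM) and the endocytic receptor gene Lrp1 (19.3, 19.3, 17.9 and 46.7 CPM). In carcinoma-like cells 19, 23 and 21 were tested, with 0 called with the STING agonist, 3 with the LTβR agonist and 4 with the combination (all genes 5.28%, 3.81% and 4.55%). Mmp3, at 8.91, 15.6, 46.45 and 70.95 CPM, and Mmp9, at 0.742, 10.4, 112 and 31.4 CPM, were higher with the LTβR agonist and with the combination. Their UMIs were 12, 21, 84 and 113 for Mmp3 and 1, 14, 202 and 50 for Mmp9. Whether few cells or the cells with fibroblast markers held the UMIs was not examined for genes outside the 9 members. Mmp28 (23.75, 19.4, 9.95 and 20.1 CPM) was lower with the LTβR agonist, and the stromelysin gene Mmp10 (33.4, 0, 32.6 and 6.28 CPM) and the urokinase receptor-associated gene Mrc2 (26.7, 15.6, 30.96 and 11.9 CPM) were lower with the combination. The count of 0 for Mmp10 in the STING agonist library allows up to 2.23 CPM. Timp3, by contrast, had 1859, 1649, 1461 and 1288 CPM in that class, and Serpine2 229, 179, 164 and 192 CPM.

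The remaining genes of the list with many UMIs differed less than 2-fold from untreated in macrophage or monocyte-like cells. The plasminogen-binding pair Anxa2 and S100a10 had 394, 594, 625 and 541.5 CPM and 374, 497, 439.5 and 392.5 CPM, and in carcinoma-like cells 1480, 1719, 1716 and 1946 and 1009, 1121, 936 and 1004 CPM. Itgam and Itgb2, the integrin chains that associate with the urokinase receptor, were at 612, 697, 589.5 and 459.9 and 341, 362, 398 and 332 CPM. Lrp1 was at 472, 619, 487 and 445 CPM and Bsg at 241, 318, 261 and 253 CPM. Among the related membrane metalloproteinases, Adam8 had 242, 393.5, 314 and 254 CPM, Adam9 198, 213, 195 and 208 CPM, Adam10 193, 163, 175 and 158 CPM and Adam17 166, 155, 156.5 and 138 CPM. Adam8 was higher in neutrophil-like cells, at 628.5, 779, 839 and 844 CPM, and in Gpnmb cells, at 655, 785, 735 and 608 CPM.

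Genes most like each member were taken by Pearson correlation of log2(CPM + 1) over 72 profiles, which are 18 classes and subsets in each of 4 libraries, among 13621 genes. Profiles of 1 library share its depth, so r is a description. For Mmp12 they included Fcrlb (0.919) and AU022793 (0.910), and for Mmp13 Slc7a2 (0.877), Fblim1 (0.859) and Mmp12 (0.852). Mmp14 was most like Gm56768 (0.951), Lrp1 (0.950) and Npc2 (0.947), and Mmp19 most like Nrg1 (0.915), Gab1 (0.910) and Oas1g (0.902). Timp1 went with Col4a1 (0.873), Sphk1 (0.868) and Micall2 (0.843), Timp2 with Mmp2 (0.771), Per2 (0.766) and Cd63 (0.759), Plaur with Tnfaip2 (0.968), Ier3 (0.959) and Ptgs2 (0.956) and Plau with Adam17 (0.888), Gas2l3 (0.877) and Blvrb (0.855). Values for Serpinb2 were lower, with Gm26626 (0.761), A530046M15Rik (0.755) and Rybp (0.738). Mmp12 was thus among the 3 genes most like Mmp13, and from the list of 48 Adam17, Lrp1 and Mmp2 were among those most like Plau, Mmp14 and Timp2.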

How the data were processed

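The authors deposited, for each library, a matrix of whole-number UMI counts per gene and cell barcode, not normalized. Per the labels the libraries used the GEM-X 5′ kit, whereas the study's methods name an earlier version of the 5′ chemistry, Cell Ranger 7.1.0 and mm10, and the matrix headers name version 8.0.1. The labels give 1 library for each group.

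From these counts, cells with 300 to 5000 genes and at most 6% mitochondrial UMIs were kept, the limits the study states. An automatic doublet call marked 0, 0, 1 and 0 cells and had not worked, so the cells with the highest doublet scores (scanpy 1.11.5), 0.4% per 1000 cells, were removed (305, 949, 857 and 1066). Cells were clustered (2000 variable genes, 30 components, 20 neighbors, leidenalg 0.10.2 at resolution 1) without the 9 members and the other genes of both systems, and clusters were named from marker lists where at least 3 markers passed. Sub-clusters stayed unnamed where another list led among their top genes, or where a gene in the subset's own name was not among the passing markers. CPM was computed as UMIs of a gene per 1000000 UMIs in the cells summed. Intervals are exact Poisson for levels, exact conditional binomial for ratios and Clopper-Pearson for shares (scipy 1.17.1), at 95%, and cover counting error only. With 1 library per group no test was run. Scripts were tested on simulated data.

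The members, lists and rules were chosen with earlier results of these data known, and the naming thresholds, the removal of cells with fibroblast markers and the naming of further sub-clusters were set after seeing the data. All 9 members are named. Genes of the list of 48 are named where called against untreated in a class, or with more UMIs than the median member, and the 3 genes most like each member are named except 1. That gene and 1 macrophage subset, whose cells stay in the class totals and in the separation of mix and levels, are not reported here. Further genes were named as class markers or cluster leaders.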

Additional observations from a re-analysis of the deposited data

Results flagged for a closer look

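Several genes had differences of at least 2-fold in opposite directions in different cells under the same comparison. With 1 library per group the difference between those differences was not tested, and all values are log2 ratios of CPM. With the STING agonist relative to untreated, Serpinb2 was at 1.64 in macrophage or monocyte-like cells as a whole and at -2.21 in activated neutrophil-like cells, but the latter was 1.09, the same direction as the former, with each cell named by its own markers.

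Mmp12 with the LTβR agonist relative to untreated was at 1.26 in cycling macrophage-like cells and at -1.11 in C1q macrophage-like cells. With the combination it was at 1.33 in cycling macrophage-like cells, at -1.41 in Chil3 Vcan monocyte-like cells and at -1.06 in MHC II Ccr2 monocyte-like cells. The combination relative to the LTβR agonist alone gave 1.22 in C1q macrophage-like cells and -1.47 in Chil3 Vcan monocyte-like cells. Under other ways of filtering, clustering or naming the cells, 3 of these values turned direction. The C1q value of -1.11 was 0.21 at resolution 2, 0.09 with the looser limits on genes and mitochondrial UMIs and 0.05 with further sub-clusters named. The C1q value of 1.22 was -0.34 with no doublets removed, -0.04 with the looser limits and -0.19 with own markers, and the MHC II Ccr2 value of -1.06 was 0.23 with own markers and 0.25 with further sub-clusters named.

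For Mmp13 the high side was the carcinoma-like class, in which 2 cells held most UMIs of the combination library. Relative to the STING agonist alone the combination was at 5.50 there and at -1.23 in cycling macrophage-like cells, and relative to the LTβR agonist alone at 2.41 and -1.01 in the same cells. With own markers both carcinoma-like values turned, to -0.61 and -0.02.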

How the results depend on the processing

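No paired analysis was possible because each group had 1 library, and for the same reason no replicate could be left out. Of the 37 called log2 ratios, 22 stayed called and 3 turned with no doublets removed, 16 of 35 with cells thinned to 1000 UMIs (1 turned), 33 with ratios centered on the median gene, 25 with the mean over cells of CPM, 28 with no upper limit on genes and 15% mitochondrial UMIs (2 turned), 22 of 35 at resolution 2 (2 turned), 27 with members and pathway genes kept for clustering (2 turned), 22 of 32 without the 1% of cells with most UMIs of the gene, and 9 with each cell named by its own markers (13 turned). The cause was not tested. Thinning leaves out shallow cells, and few UMIs limit the neutrophil-like and carcinoma-like ratios.

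The number of calls in macrophage or monocyte-like cells, 6, was 3 after thinning and 17 at 1.5-fold. In neutrophil-like cells 2 calls became 5 with no doublets removed, 0 after thinning and at 200 UMIs or more, 4 with the looser limits on genes and mitochondrial UMIs, 6 with own markers and 1 without the top cells. The 3 calls in carcinoma-like cells became 7 with no doublets removed and with the mean over cells, 5 with no minimum of UMIs and with the looser limits, 10 at 1.5-fold and 8 with own markers. The 26 calls in subsets were 67 at 1.5-fold and 40 with no minimum of UMIs. The share of all genes called was computed only under the main rule, so these counts are not a result about the members. Among the classes and subsets described, the same 1 came first in all libraries for 6 genes, and for 4 at resolution 2.

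With own markers these ratios turned: Serpinb2 in neutrophil-like cells (LTβR agonist to untreated 1.68, combination to LTβR agonist -0.76), Mmp13 in carcinoma-like cells (combination to STING agonist -0.61, to LTβR agonist -0.02), Mmp12 in C1q cells (STING agonist to untreated 0.12, combination to STING agonist -0.39, to LTβR agonist -0.19), Timp1 in C1q cells (LTβR agonist to untreated -0.02, combination to LTβR agonist 0.06), Mmp12 in Chil3 Vcan cells (STING agonist to untreated 0.81), Mmp12 in MHC II Ccr2 cells against untreated (0.06 with the STING agonist, 0.23 with the combination) and Serpinb2 in activated neutrophil-like cells (STING agonist to untreated 1.09). Mmp12 in C1q cells also turned with no doublets removed (STING agonist to untreated 0.17, combination to STING agonist -0.93, to LTβR agonist -0.34), at resolution 2 (0.12 and 0.21 for the agonists against untreated), with the looser limits (LTβR agonist to untreated 0.09, combination to LTβR agonist -0.04), with members kept for clustering (combination to STING agonist -0.36) and with further sub-clusters named (LTβR agonist to untreated 0.05). Timp1 with the LTβR agonist turned in C1q cells after thinning (-0.02) and in Chil3 Vcan cells with members kept (-0.16), and Mmp12 in MHC II Ccr2 cells with the combination when further sub-clusters were named (0.25).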
